A study of Rattus norvegicus with 16 samples.

Results

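Dhrs7c and 5 further genes of retinoid metabolism (Rdh10, Aldh1a1, Aldh1a2, Rara and Rarb) were followed across 16 arrays of rat right ventricular wall. They are 6 of the 17245 genes measured by a probe set with exactly 1 gene symbol, all 6 had such a probe set, and none was removed for a low level. The genes were proposed with results of these arrays in view, so their own differences between groups are given as a description with no test. The rats were male Wistars weighing 160 to 180 g, and they underwent sham surgery or banding of the pulmonary artery, a constriction against which the right ventricle has to pump. The labels form 3 groups, CON (7 arrays, numbered 1 to 7), RVF+ (5 arrays, 8 to 12) and RVF (4 arrays, 13 to 16), and the design text calls the CON samples controls. RVF+ and RVF are not spelled out, and no label ties a sample to sham surgery or to banding. The labels name no genotype, drug or time after operation. Whether each sample is another animal is not stated either, and the p-values therefore measure sample-to-sample spread alone, part of which may be technical.

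Vitamin A reaches the heart as retinol or as retinyl esters in lipoproteins, and it is stored as retinyl esters. Retinol dehydrogenases such as Rdh10 oxidise retinol to retinaldehyde in a reversible step, and the Aldh1a enzymes oxidise retinaldehyde irreversibly to retinoic acid. Retinoic acid binds the nuclear receptors Rara, Rarb and Rarg, which pair with a retinoid X receptor (Rxra, Rxrb or Rxrg) on response elements in DNA, and enzymes of the Cyp26 family degrade it. Dhrs7c is a short-chain dehydrogenase of the sarcoplasmic reticulum of heart and skeletal muscle for which retinol dehydrogenase activity has been described. In the developing heart Aldh1a2 is best known from the epicardium, the outer mesothelial layer.

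The Rarb gene is a textbook target of retinoic acid through a direct repeat of the receptor core site, and this repeat is shown because Rarb is the member whose promoter holds it. RefSeq promoter windows of assembly GRCr8 (250 bases before and 50 bases after a transcript start, 300 in all) were available for 4 of the 6 members, Aldh1a1, Aldh1a2, Rara and Rarb. Both strands were searched for the core site AGGTCA and for the direct repeats DR5 and DR2, in which core sites (A or G, then G, then G or T, then TCA) stand 5 or 2 bases apart. A DR5 was found in 1 of the 4 member windows, that of Rarb, at bases 25 to 41 after the start of a transcript that begins inside the annotated gene, on the plus strand. The stretch of 30 bases printed here, with flanks, lies at chr15:11336410-11336439. Of the 42 windows of other retinoid pathway genes 1 held a DR5, that of Cyp26a1, a retinoic acid-degrading enzyme and another known target, at bases -92 to -76 on the opposite strand, within the printed stretch at chr1:244883724-244883753. Of all 33469 windows 0.382% held a DR5, 0.170% a DR2 and 16.2% the core site AGGTCA, and neither a DR2 nor that core site was in the 4 member windows. The sites are printed on the strand of the gene with the core sites in capitals.
Rarb: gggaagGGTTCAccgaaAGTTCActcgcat
Cyp26a1: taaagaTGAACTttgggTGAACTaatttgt
The pair of genes had different levels here. Rarb was lower in both RVF+ and RVF than in CON, while Cyp26a1 differed from CON by -0.00077 and -0.0035 log2 units and had a mean of 3.51 in CON, far below the level of the median gene (5.57).

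Values are RMA intensities on the log2 scale, on which a difference of 1 is a 2-fold change, and each difference is given with its standard error (SE) and 95% interval from limma. Array RVF+ 8 stood apart from all others: over all genes it differed from the CON mean by a root mean square of 0.711, against 0.326 to 0.448 for the remaining 8 arrays of RVF+ and RVF and 0.157 to 0.212 for CON arrays. Where leaving it out moved a difference of a member from CON or a called value by over 1.5-fold, both values are given. At an adjusted p under 0.05 limma called 27.7% of all genes in RVF+ against CON (2423 higher, 2348 lower) and 17.1% in RVF against CON (1528 higher, 1429 lower). With each array centred on its median the splits became 1757 higher and 3577 lower, and 1084 higher and 2108 lower, as centring moved the median of all genes to -0.11 and -0.09. In RVF+ against RVF it called 0% (0 genes), with 1242 genes at an unadjusted p under 0.05. The RVF+ and RVF comparisons with CON share the CON arrays, so their agreement is not independent. Among the 6 members the same fit called 1 higher (Rara) and 2 lower (Dhrs7c and Rarb) in each comparison with CON and 0 in RVF+ against RVF. Over all genes 14.1% were called higher and 13.6% lower in RVF+, and 8.86% higher and 8.29% lower in RVF. Nothing is read from these counts, because the members were chosen on these comparisons. The same 3 genes did not overlap with CON, as was the case for 14.6% of all genes in RVF+ (6.96% above, 7.63% below CON) and 18.8% in RVF (9.83% above, 9% below), and 1.74% of all genes did not overlap between RVF+ and RVF.

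Dhrs7c (probe set 10734701) was the member with the widest distance from CON. In CON its log2 level ran from 7.25 to 7.85 with a median of 7.60. RVF+ 8 to 12 had 3.62, 5.86, 5.14, 6.00 and 5.66, and RVF 13 to 16 had 4.43, 5.17, 5.43 and 5.63. Every RVF+ and RVF array lay below every CON array, and the lowest values were those of RVF+ 8 and RVF 13. CON averaged 7.55 ± 0.20 (SD, n = 7). The RVF+ arrays averaged 5.26 ± 0.97 (SD, n = 5), and those of RVF 5.16 ± 0.52 (SD, n = 4). Both of these means lay below the level of the median gene (5.57), and RMA compresses differences of dim probe sets. Dhrs7c thus differed from CON by -2.29 ± 0.31 (SE, 95% interval -2.95 to -1.64, 4.91-fold lower) in RVF+, the 9th lowest difference of 17245 genes. In RVF the difference was -2.39 ± 0.33 (SE, 95% interval -3.09 to -1.69, 5.23-fold), the 5th lowest. Without RVF+ 8 the RVF+ difference was -1.89 ± 0.19 (SE). RVF+ minus RVF was 0.09 ± 0.36 (SE, 95% interval -0.66 to 0.85), and it was 0.50 ± 0.22 (SE) without RVF+ 8. The sign of this difference turned without RVF+ 9, RVF+ 11, RVF+ 12 or RVF 13, with -0.15 as the lowest value (without RVF 13). In wall tissue, fewer cells of a type and less RNA per cell cannot be told apart.

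**Figure D1:**
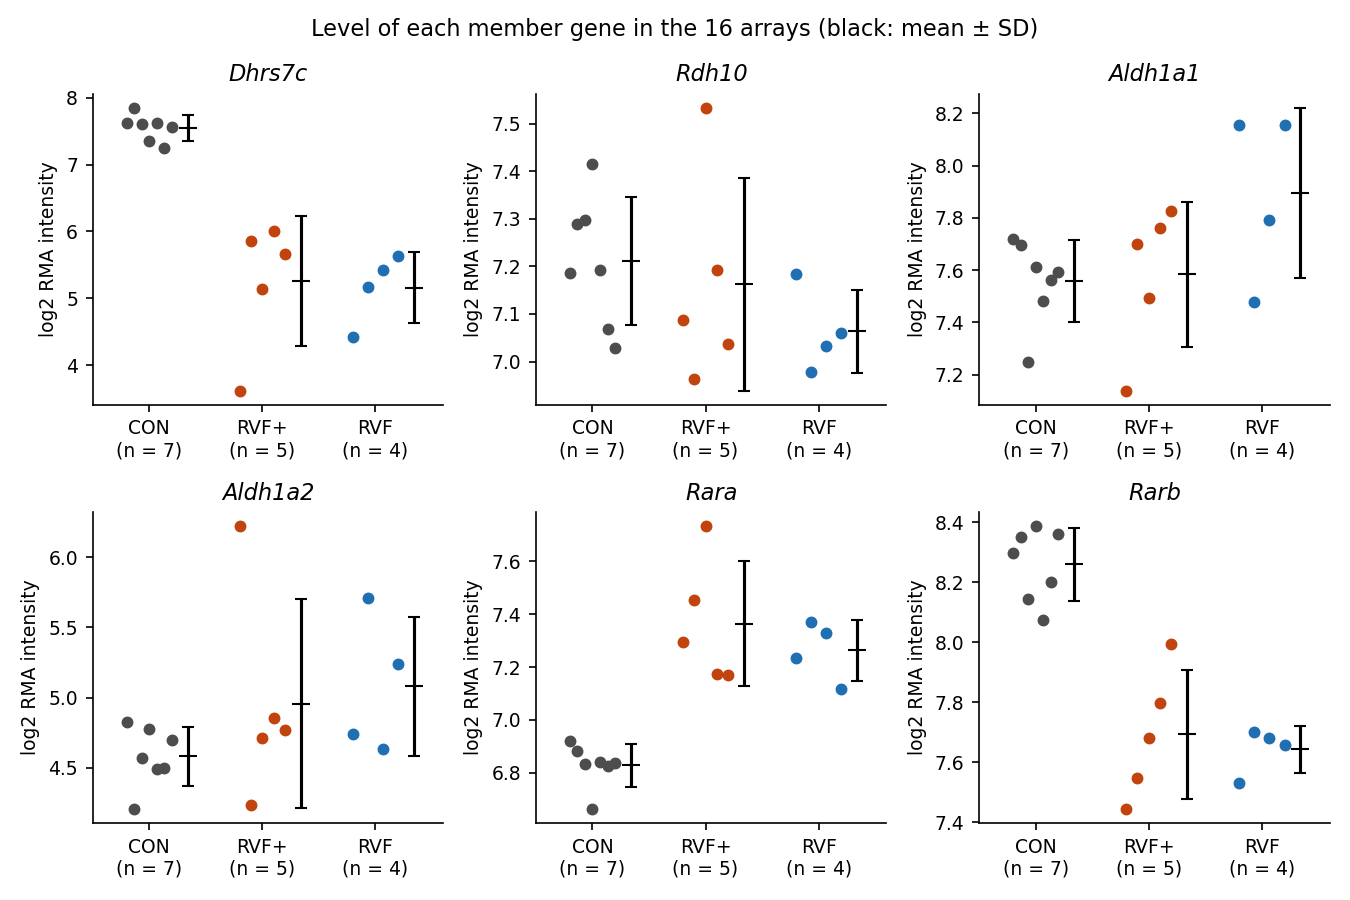
Log2 RMA intensity of the 6 members, 1 panel per gene with its own axis, by group (dots, single arrays; black, mean ± SD). Dhrs7c and Rarb in RVF+ and RVF lie below, and Rara above, all 7 CON arrays, while Rdh10, Aldh1a1 and Aldh1a2 overlap with CON.

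Array means of cardiomyocyte markers lay below those of CON in RVF+ and RVF, by smaller amounts than Dhrs7c. The mean log2 level of 9 ventricular cardiomyocyte markers was 11.6 to 11.7 in CON arrays, 10.7 to 11.5 in those of RVF+ and 11.4 to 11.5 in those of RVF, so the tissue carried its defining markers in every array. In RVF+ 5 of the 9 were called lower (13.6% of all genes), with a median difference of -0.34, or -0.22 without RVF+ 8, and under median centring 9 of 9 were called lower (median -0.44). In RVF 0 of the 9 were called by limma (2 were lower at an unadjusted p under 0.05, and 2 were called lower without RVF+ 8), with a median of -0.12. RVF+ 8 was lowest for both Dhrs7c and the marker mean (10.65). Within RVF+, RVF+ 10 was next lowest in both (5.14 and 11.23). RVF 13, the next lowest of all arrays for Dhrs7c, had a marker mean of 11.42, the lowest within RVF (others 11.45 to 11.52). Markers of some other cells rose. Fibroblast markers had array means of 8.18 to 8.61 for CON, 8.80 to 9.57 for RVF+ and 9.03 to 9.28 for RVF. Of the 9, 6 and 5 were called higher in RVF+ and RVF, beside 14.1% and 8.86% of all genes. Pdgfra (group means of 8.62, 8.58 and 8.49) and Tcf21 (6.56, 6.48 and 6.47), also in that list, did not rise. Macrophage markers (6.75 to 7.21, 7.61 to 8.93 and 7.36 to 7.92) had 7 and 5 of 7 called higher. Of 6 endothelial markers 1 and 0 were called higher, and of 5 markers of smooth muscle and pericytes 1 and 1. In the adipocyte, lung epithelium and liver lists 0 were called. Proliferation markers (3.89 to 4.51, 4.60 to 7.57 and 5.33 to 5.52, highest in RVF+ 8) had 6 and 4 of 6 called higher. Atrial myocardium markers, by contrast, were lower in part: array means were 6.15 to 7.43, 5.63 to 6.44 and 5.66 to 6.14, the median differences of the 5 markers were -0.95 and -0.91, and 1 was called lower and 1 higher in RVF+ and 3 lower in RVF. The 5 skeletal muscle markers measured, of 8 listed, were dim in every group (4.08 to 4.37, 4.52 to 4.91 and 4.60 to 4.78), but the array means of RVF+ and RVF lay above those of CON, and 3 and 2 of the 5 were called higher. The part of cell composition in the Dhrs7c difference was not tested.

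**Figure D2:**
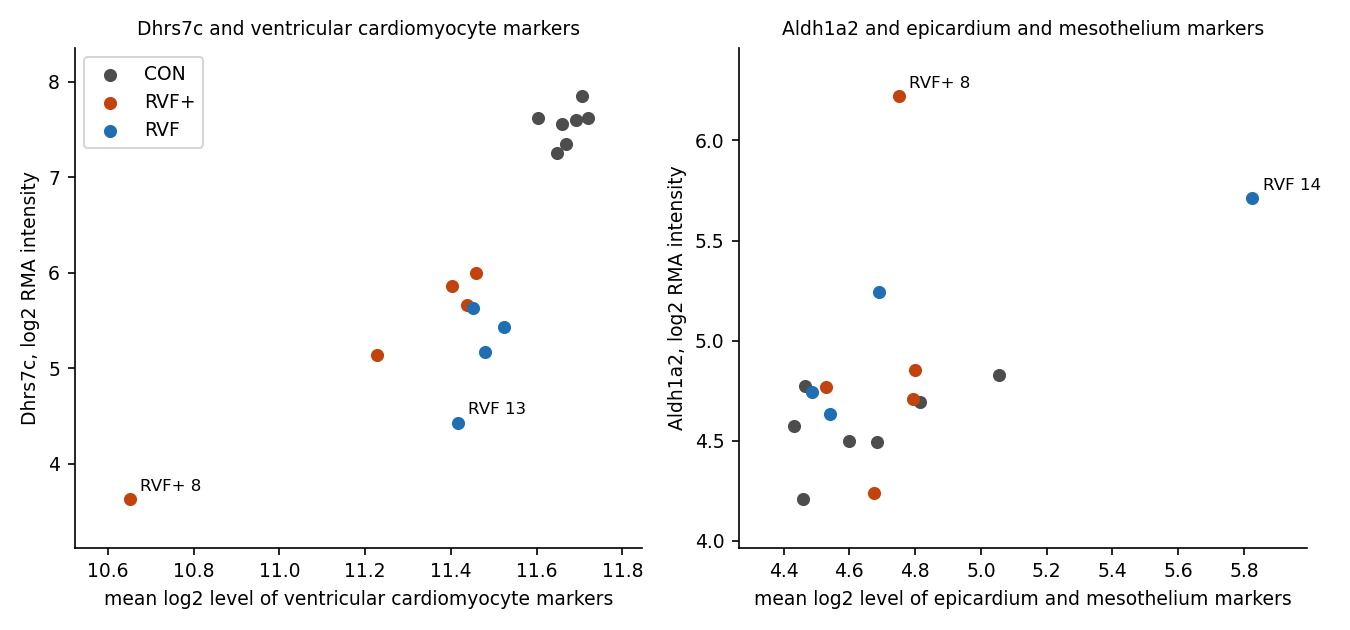
Left, log2 level of Dhrs7c against the mean log2 level of 9 ventricular cardiomyocyte markers; right, Aldh1a2 against the mean of 9 epicardial and mesothelial markers (dots, 16 arrays coloured by group). RVF+ 8 is lowest in both measures on the left, and on the right RVF 14 is high in both measures while RVF+ 8, at 6.22 for Aldh1a2, is high only in Aldh1a2.

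Rdh10 (probe set 10874929), the retinol dehydrogenase that supplies retinaldehyde in the embryo, overlapped between all groups. Its level ran from 7.03 to 7.41 in CON with a median of 7.19. It was 7.09, 6.96, 7.53, 7.19 and 7.04 in RVF+ and 7.18, 6.98, 7.03 and 7.06 in RVF. No group lay apart, and the highest and the lowest value were both from RVF+ arrays. The difference from CON was -0.05 ± 0.09 (SE, 95% interval -0.25 to 0.15) in RVF+ (-0.03 without RVF+ 8) and -0.15 ± 0.10 (SE, 95% interval -0.36 to 0.07) in RVF. The lower bounds of these intervals lie well above the difference of Dhrs7c.

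Among the other enzymes that interconvert retinol and retinaldehyde, 14 of 18 listed were measured. In RVF+ 1 was called higher and 3 lower, a share of 28.6% beside 27.7% of all genes, and in RVF 1 was called lower and 0 higher, 7.14% beside 17.1%. Dhrs4, a peroxisomal short-chain reductase of retinaldehyde, fell by 0.63 ± 0.11 (SE) in RVF+ and by 0.46 ± 0.12 (SE) in RVF (limma adjusted p = 0.00033 and 0.011), below all CON arrays in 5 of 5 and 4 of 4; the RVF call was narrowly lost without RVF 14 (adjusted p = 0.050). The aldo-keto reductases Akr1b10 and Akr1b8 moved in opposite directions in RVF+. Akr1b10 fell by 1.29 ± 0.26 (SE, adjusted p = 0.0013) and Akr1b8 rose by 1.06 ± 0.23 (SE, adjusted p = 0.0019), and neither passed in RVF (adjusted p = 0.64 and 0.30). They are close relatives, so probes of either may take up the other's transcript. Rdh13, a mitochondrial member, fell by 0.43 ± 0.14 (SE, adjusted p = 0.024) in RVF+, a call lost without RVF+ 8 or without RVF+ 10 (highest adjusted p = 0.069). Dhrs3, which reduces retinaldehyde back to retinol and is itself induced by retinoic acid, averaged 7.83 in CON, 7.78 in RVF+ and 7.66 in RVF and was not called (adjusted p = 0.77 and 0.31).

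Aldh1a1 (probe set 10714323), a cytosolic retinaldehyde dehydrogenase, was higher than in any CON array in part of the RVF+ and RVF arrays. CON ran from 7.25 to 7.72 with a median of 7.59. RVF+ arrays had 7.14, 7.70, 7.49, 7.76 and 7.83, spread on both sides of CON, and RVF arrays had 8.16, 7.48, 7.79 and 8.16. Of the RVF+ arrays 2 of 5 (RVF+ 11 and RVF+ 12), and of the RVF arrays 3 of 4 (all except RVF 14), lay above every CON array. The RVF difference was 0.34 ± 0.14 (SE, 95% interval 0.04 to 0.64, 1.26-fold). In RVF+ it was 0.02 ± 0.13 (SE, 95% interval -0.26 to 0.31), with a sign that turned under median centring (-0.07), and it was 0.14 ± 0.12 (SE) without RVF+ 8. RVF+ minus RVF was -0.31 ± 0.15 (SE, 95% interval -0.63 to 0.01), and -0.20 ± 0.14 (SE) without RVF+ 8.

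Aldh1a2 (probe set 10911380), the retinaldehyde dehydrogenase of the embryonic heart, was dim, with group means below the median gene. CON ran from 4.21 to 4.83 with a median of 4.57. RVF+ arrays had 6.22, 4.24, 4.71, 4.85 and 4.77, and RVF arrays had 4.74, 5.71, 4.63 and 5.24. High values were confined to single arrays, RVF+ 8 in RVF+ and RVF 14 and RVF 16 in RVF, and the groups overlapped. The differences from CON were 0.38 ± 0.26 (SE, 95% interval -0.16 to 0.92) and 0.50 ± 0.27 (SE, 95% interval -0.08 to 1.08). Without RVF+ 8 the RVF+ difference was 0.06 ± 0.18 (SE), and without RVF 14 the RVF difference was 0.29 ± 0.29 (SE).

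The epicardial and mesothelial marker mean was highest in RVF 14, at 5.82 against 4.49 to 4.69 in the other RVF arrays, 4.53 to 4.80 in RVF+ and 4.43 to 5.05 in CON. There Upk3b, a uroplakin of mesothelium, stood at 5.76, against 3.05 to 4.11 in the other RVF arrays and 3.20 to 5.14 in CON. RVF+ 8, which had the highest Aldh1a2 level of all arrays, had a marker mean of 4.75, within the range of CON. Its single markers were mixed. Upk3b (4.30), Msln (4.90) and Upk1b (4.42) were each the highest of RVF+, the remaining markers were not, and Wt1 (6.30) was the lowest of all arrays. Of the 9 markers 1 was called higher in RVF+ and 2 in RVF (11.1% and 22.2%, beside 14.1% and 8.86% of all genes called higher). The part of these cells in the Aldh1a2 values was not tested.

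Aldh1a3, the only other Aldh1a enzyme of the list with a value here, rose in RVF. CON averaged 5.36 ± 0.26 (SD, n = 7), RVF+ arrays 5.71 ± 0.59 (SD, n = 5) and RVF arrays 6.200 ± 0.18 (SD, n = 4). All 4 RVF arrays lay above every CON array, and the RVF difference of 0.84 ± 0.21 (SE, 1.79-fold) passed in limma (adjusted p = 0.011). The RVF+ difference of 0.35 ± 0.20 (SE) did not (adjusted p = 0.21, or 0.045 without RVF+ 8), and RVF+ and RVF were not shown to differ (-0.49 ± 0.23 SE, adjusted p = 0.67).

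Rara (probe set 10738130), the retinoic acid receptor of broad tissue distribution, was higher in every RVF+ and RVF array than in any CON array. CON ran from 6.66 to 6.92 with a median of 6.84, RVF+ arrays had 7.29, 7.45, 7.73, 7.17 and 7.17, and RVF arrays had 7.23, 7.37, 7.33 and 7.12. The gap between the lowest of these 9 arrays and the highest CON array was narrower than the range of CON. Rara differed from CON by 0.54 ± 0.09 (SE, 95% interval 0.34 to 0.73, 1.45-fold) in RVF+ and by 0.43 ± 0.10 (SE, 95% interval 0.23 to 0.64, 1.35-fold) in RVF. RVF+ minus RVF was 0.10 ± 0.10 (SE, 95% interval -0.12 to 0.32).

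Rarb (probe set 10786108), whose DR5 is printed above, went the other way. CON ran from 8.07 to 8.39 with a median of 8.30. RVF+ arrays had 7.44, 7.55, 7.68, 7.80 and 8.00, and RVF arrays had 7.53, 7.70, 7.68 and 7.66. All 9 were below the lowest CON array, RVF+ 12 closest to it. The difference was -0.57 ± 0.09 (SE, 95% interval -0.76 to -0.38, 1.48-fold) in RVF+ and -0.62 ± 0.10 (SE, 95% interval -0.82 to -0.41, 1.53-fold) in RVF, with 0.05 ± 0.10 (SE, 95% interval -0.17 to 0.27) between RVF+ and RVF. Rarb alone among the members had 3 probe sets. The second differed by -0.68 ± 0.10 and -0.67 ± 0.11 (SE) and the third by -0.61 ± 0.12 and -0.47 ± 0.13 (SE) in RVF+ and RVF, each below all CON arrays except the third in RVF, which overlapped.

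The partner receptors were lower too, and most of them passed the test. Of the 4 receptors outside the members 3 fell in RVF+ (all 3 retinoid X receptors; 75% beside a background of 27.7%) and 2 in RVF (50% beside 17.1%), with median differences of -0.42 and -0.35 against -0.01 over all genes in both comparisons. Rxrg, the retinoid X receptor of striated muscle, fell by 1.42 ± 0.19 (SE, 2.68-fold, limma adjusted p = 4.4e-05) in RVF+ and by 1.30 ± 0.21 (SE, 2.47-fold, adjusted p = 0.00030) in RVF, from a CON mean of 8.74 ± 0.09 (SD, n = 7). It lay below all CON arrays in 5 of 5 and 4 of 4 arrays, and without RVF+ 8 the RVF+ difference was -1.18 ± 0.13 (SE). Rxra, the widely expressed form, fell by 0.50 ± 0.08 (SE, adjusted p = 0.00033) and 0.46 ± 0.09 (SE, adjusted p = 0.0017). Rxrb fell by 0.35 ± 0.08 (SE, adjusted p = 0.0025) in RVF+, while its RVF difference of -0.24 ± 0.08 (SE) missed the threshold (adjusted p = 0.062, and 0.022 to 0.18 over the alternatives). Rarg differed by -0.03 and 0.04 (adjusted p = 0.77 and 0.78).

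Part of the cofactors that these receptors recruit fell in both comparisons, by 1.16- to 1.35-fold. Of 8 measured, 5 were called lower in RVF+ and 4 in RVF, with none higher in limma (1 and 0 at an unadjusted p under 0.05), beside 13.6% and 8.29% of all genes called lower. Their median differences were -0.25 and -0.24. Ncoa3 was the gene higher at an unadjusted p under 0.05, by 0.15 ± 0.07 (SE, limma adjusted p = 0.12) in RVF+. Nrip1, a corepressor of nuclear receptors with a role in energy metabolism, fell by 0.44 ± 0.09 (SE, adjusted p = 0.0012) and 0.29 ± 0.09 (SE, adjusted p = 0.038). Ncor1, a corepressor, fell by 0.27 ± 0.07 (SE, adjusted p = 0.0060) and 0.26 ± 0.07 (SE, adjusted p = 0.016). The coactivator Ncoa1 fell by 0.40 ± 0.09 (SE, adjusted p = 0.0019) and 0.29 ± 0.09 (SE, adjusted p = 0.039), and its relative Ncoa2 fell by 0.40 ± 0.10 (SE, adjusted p = 0.0053) in RVF+ and had -0.28 ± 0.11 (SE, adjusted p = 0.077) in RVF. Without RVF+ 8 the limma adjusted p in RVF was 0.021 (Nrip1), 0.0088 (Ncor1), 0.0024 (Ncoa1) and 0.013 (Ncoa2). In that fit 5 of the 8 cofactors were called lower in RVF. Over the alternatives as a whole, the RVF calls are the less firm ones. That of Ncoa1 was lost under quantile normalization (the highest adjusted p over the alternatives was 0.13) and when any of CON 1, 2, 3, 4 or 6 or of the 4 RVF arrays was left out, that of Nrip1 without any of CON 2, 3, 5 or 7 or RVF 13 to 15 (up to 0.12), and that of Ncor1 without RVF 13 or RVF 16 (up to 0.060).

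Genes of retinol uptake, binding and storage split in direction. Of 16 measured, 3 were higher and 2 lower in RVF+, and 1 higher and 4 lower in RVF (31.3% in each, beside 27.7% and 17.1%). Dgat1, which esterifies retinol besides making triglyceride, fell by 0.68 ± 0.10 (SE, adjusted p = 5.2e-05) and 0.67 ± 0.10 (SE, adjusted p = 0.00017). Lpl, the lipase that releases retinyl esters and fatty acids from lipoproteins, fell by 0.45 ± 0.09 (SE, adjusted p = 0.0011) and 0.53 ± 0.09 (SE, adjusted p = 0.00081). Both lay below all CON arrays in every RVF+ and RVF array. Crabp2, which carries retinoic acid to its receptor, rose from a dim CON mean of 4.05 by 0.81 ± 0.19 (SE, adjusted p = 0.0036) in RVF+ and by 0.66 ± 0.20 (SE, adjusted p = 0.031) in RVF. The RVF call was lost under quantile normalization, under median centring and without any of CON 1, 3 or 4 or RVF 13 to 15 (up to 0.10). Bco2, a carotenoid-cleaving oxygenase that was dim in CON (mean 3.92), rose by 0.51 ± 0.16 (SE, adjusted p = 0.026, and 0.051 without CON 2) in RVF+, and by 0.29 ± 0.09 (SE, adjusted p = 0.026) without RVF+ 8. Its RVF difference was 0.36 ± 0.17 (SE, adjusted p = 0.18, or 0.0070 without RVF+ 8), and every RVF array lay above every CON array. Stra6, the retinol receptor, and Lrat, which esterifies retinol in other tissues, were not called in either comparison (lowest adjusted p = 0.48). The 4 genes of retinoic acid breakdown, Cyp26a1, Cyp26b1, Cyp26c1 and Cyp2c22, were all dim, and limma called 0 of 4 in either comparison (0 in RVF+ and 1 in RVF at an unadjusted p under 0.05); that nearest to a call was Cyp26b1 in RVF, at -0.54 ± 0.20 (SE, adjusted p = 0.081), which passed without RVF+ 8, with array weights or with RVF and CON fitted alone (lowest 0.034).

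**Figure D3:**
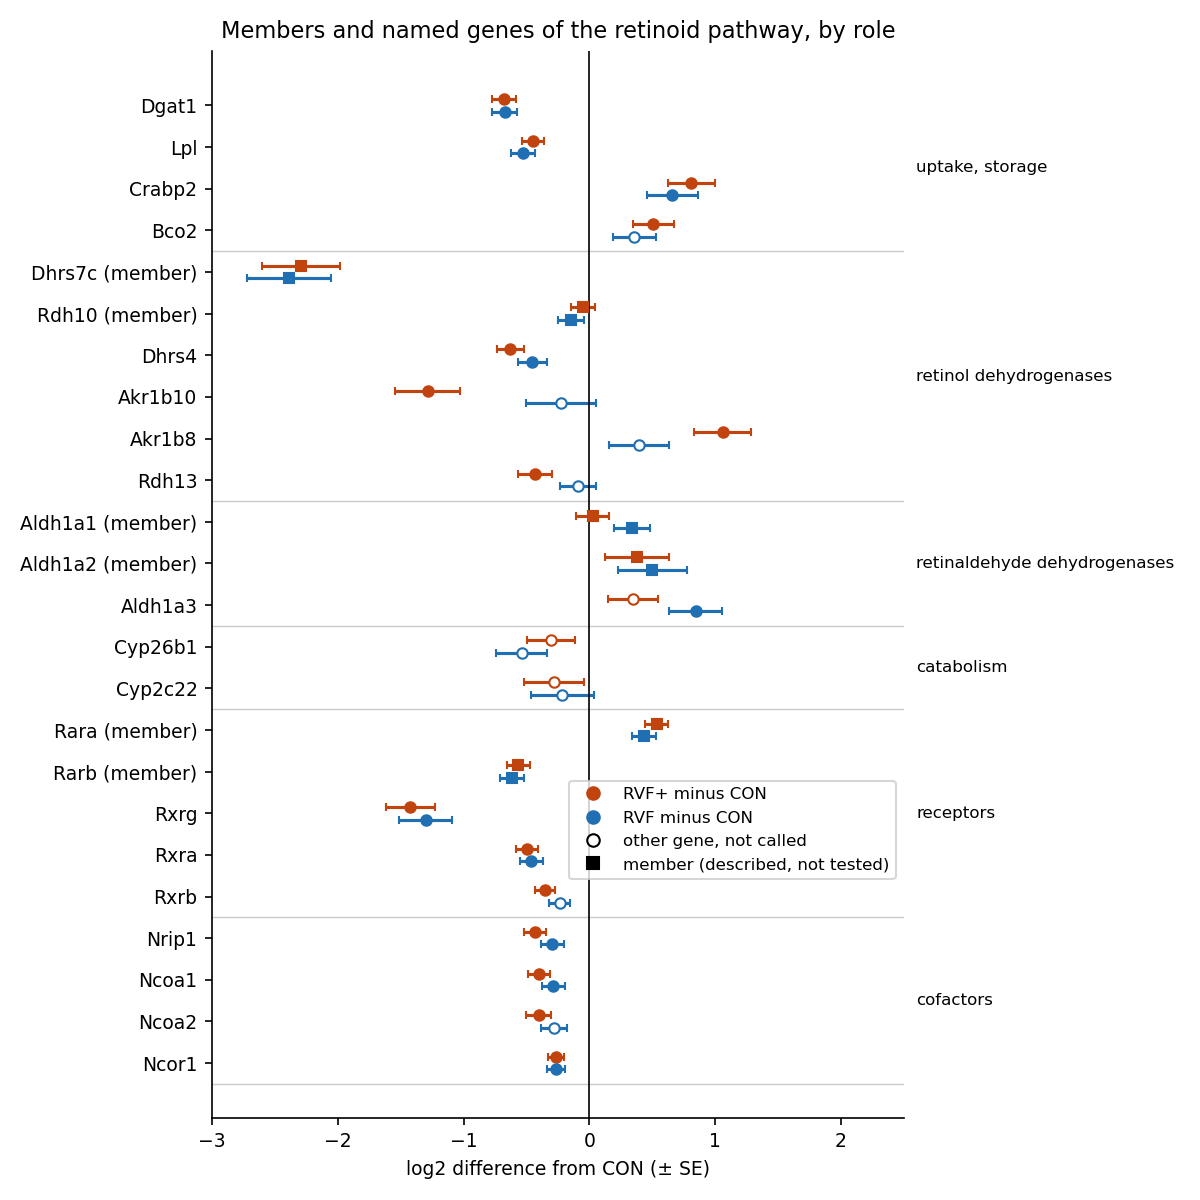
Log2 difference from CON (± SE) of the 6 members (squares) and the named genes of the retinoid pathway (circles; open, adjusted p not under 0.05) in RVF+ (orange) and RVF (blue), arranged by role. Dhrs7c, at -2.29 and -2.39, lies farthest from 0. The 3 Rxr genes lie on the lower side, as do the 4 cofactors shown, which were picked for passing from 8 measured.

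Over the 47 pathway genes measured outside the members (of 56 listed), 4 were higher and 13 lower in RVF+, a share of 36.2% beside 27.7% of all genes. In RVF 2 were higher and 11 lower, 27.7% beside 17.1%. The medians of -0.07 and -0.09 were close to those of all genes. The direction of the split did not depend on scaling: with median centring the counts were 4 and 13, and 1 and 12, and with quantile normalization 4 and 13, and 1 and 9. The RVF count of 13 depended on single arrays. It was 8 without CON 1, 2 or 3 or without RVF 13, 15 or 16, it was 6 without RVF 14, and it was 19 without RVF+ 8. Over all 17245 genes the RVF count, 2957 with all arrays, moved as well. It was 2063 to 2676 in the fits named here with 8 pathway genes, 2221 without RVF 14 and 4247 without RVF+ 8. Leaving out 1 array, the RVF+ count of pathway genes stayed between 15 and 17.

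Genes known to respond to retinoic acid did not move together. Of 20 measured, 3 were higher and 5 lower in RVF+, and 3 higher and 4 lower in RVF (40% and 35% beside 27.7% and 17.1%), with medians of -0.05 and -0.02. Cyp26a1, Cyp26b1, Dhrs3, Stra6, Crabp2 and Nrip1 are in this list and also in the pathway counts above. Tgm2, tissue transglutaminase, rose by 1.15 ± 0.11 (SE, 2.22-fold, adjusted p = 2.6e-06) and 1.21 ± 0.12 (SE, 2.31-fold, adjusted p = 4.3e-06). Rarres1, a retinoic acid-induced membrane protein, rose by 1.34 ± 0.14 (SE, 2.53-fold, adjusted p = 4.8e-06) and 1.18 ± 0.15 (SE, 2.26-fold, adjusted p = 4.4e-05). For both genes all 9 RVF+ and RVF arrays lay above CON. Meis1, a homeobox factor, fell by 0.70 ± 0.10 (SE, adjusted p = 4.5e-05) and 0.53 ± 0.10 (SE, adjusted p = 0.0015). Ret, a receptor tyrosine kinase, fell by 0.70 ± 0.13 (SE, adjusted p = 0.00056) in RVF+. It had -0.35 in RVF (adjusted p = 0.088, and 0.018 to 0.26 over the alternatives). Many of these genes have other inducers, and the fibroblast and macrophage markers given above rose in the same arrays; their part in these values was not tested.

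Relatives of Dhrs7c showed smaller differences than Dhrs7c. Of 9 other measured genes of the Dhrs family, 1 was higher and 3 lower in RVF+, and 1 higher and 2 lower in RVF (44.4% and 33.3% called, beside 27.7% and 17.1% of all genes). Dhrs3, Dhrs4 and Dhrs9 are among them and were also counted with the enzymes of retinol and retinaldehyde. Dhrs11 fell by 0.82 ± 0.18 (SE, adjusted p = 0.0020) in RVF+ and had -0.52 in RVF (adjusted p = 0.067, and 0.00053 to 0.18 over the alternatives). The nearest by name, Dhrs7, fell by 0.24 ± 0.09 (SE, adjusted p = 0.046) and 0.34 ± 0.09 (SE, adjusted p = 0.015), and Dhrs7b differed by 0.25 (adjusted p = 0.084) in RVF+ and rose by 0.33 ± 0.11 (SE, adjusted p = 0.047) in RVF. The RVF+ call of Dhrs7 and the RVF call of Dhrs7b were each lost under 12 alternatives (highest adjusted p = 0.14).

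Other genes of the sarcoplasmic reticulum, the compartment of Dhrs7c, were lower as well. Of 14 measured, 8 fell and 0 rose in RVF+ by limma (10 lower and 2 higher at an unadjusted p under 0.05), and 5 fell and 1 rose in RVF, beside 13.6% and 8.29% of all genes called lower, with medians of -0.37 and -0.19; under median centring 10 and 6 fell and 0 rose. Hrc, a calcium-binding protein of the lumen, fell by 1.25 ± 0.22 (SE, adjusted p = 0.00040) and 1.00 ± 0.23 (SE, adjusted p = 0.0065). Trdn, triadin, which anchors the release channel complex, fell by 0.82 ± 0.16 (SE, adjusted p = 0.00083) and 0.87 ± 0.17 (SE, adjusted p = 0.0015). Jph2, which ties the reticulum to the cell membrane, fell by 0.74 ± 0.10 (SE, adjusted p = 3.0e-05) and 0.35 ± 0.10 (SE, adjusted p = 0.027). Tmem38a, a cation channel, fell by 0.92 ± 0.18 (SE, adjusted p = 0.00097) in RVF+ and had -0.57 in RVF (adjusted p = 0.051). Every RVF array (highest 9.31) lay below every CON array (lowest 9.71) for Tmem38a. Its RVF difference was called under 8 of 23 alternatives (adjusted p = 9.1e-06 without RVF+ 8). The RVF call of Jph2 was lost without CON 2 or 5 or RVF 14, 15 or 16 (up to 0.085). The cardiomyocyte markers fell in the same RVF+ arrays, as given above, and their part was not tested. Ryr2 is also in the ventricular marker list and Sln in the atrial one, so the lists are not fully separate.

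The genes whose profile was nearest to that of Dhrs7c were sought among the 8623 genes at or above the median level. Nearness was the root mean square difference over the 16 arrays after subtracting each gene's own CON mean. Lsamp, a neural cell adhesion molecule, was nearest at 0.267, followed by Scn4b, a sodium channel subunit, at 0.365, Ddit4l, an inhibitor of mTOR signalling, at 0.395, Adcy1, an adenylyl cyclase, at 0.434 and Kcnd2, a potassium channel subunit, at 0.478. Lsamp differed from CON by -2.56 in RVF+ and -2.62 in RVF, and like Dhrs7c it was lowest in RVF+ 8 (-3.96 from its CON mean) and RVF 13 (-3.57). Without RVF+ 8 Lsamp, Scn4b and Adcy1 kept the ranks 1, 2 and 4, while Ddit4l and Kcnd2 were at ranks 6 and 9. These genes were picked for their likeness, so the values are a description.

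**Figure D4:**
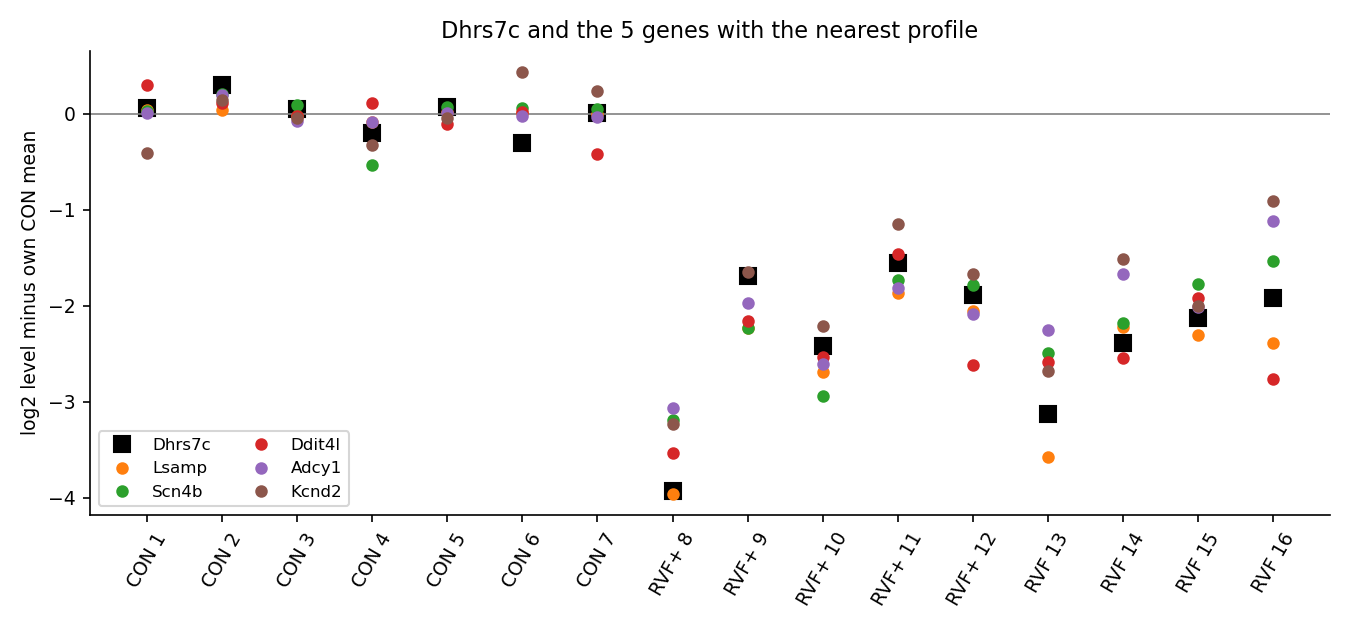
Log2 level of Dhrs7c (squares) and of the 5 genes with the nearest profile (circles) minus each gene's own CON mean, in all 16 arrays. All 6 genes lie below -0.9 in every RVF+ and RVF array and lowest in RVF+ 8, where Dhrs7c and Lsamp nearly coincide.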

How the data were processed

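Total RNA (500 ng, without reduction of ribosomal RNA) of 16 samples was labelled and hybridised to 1 array each, per the labels' protocols. The authors deposited 1 RMA intensity per probe set and array, per the submitters' processing notes; the software's version, like the array's genome build, is not given in the sources used here. The deposited intensity values were linear (2.20 to 10294) and were converted to log2. RMA compresses differences of dim probe sets. Precision is limited by how many arrays there are. Of 29214 probe sets 18644 had 1 gene symbol and were used, 962 had several and 9608 were not listed in the annotation; the probe set with the highest mean stood for each of the 17245 genes. Group means were fitted to all 16 arrays with limma 3.58.1 (lmFit, eBayes; 13 residual and 4.45 prior degrees of freedom) in R 4.3.3, so the 3 groups share 1 spread per gene, and two-sided p-values were corrected across all genes after Benjamini and Hochberg at a threshold of 0.05. No batch, date or pairing is in the labels.

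Members, gene lists and tests were chosen with earlier results of these data known. Of each list the text names up to 4 genes that passed in at least 1 comparison, those with the smallest p, or else the 2 with the smallest p, and the 5 nearest profiles to Dhrs7c; other genes named for their role, and Rbp7 and Lipe, were chosen after their values were seen. Alternatives were quantile normalization, median centring, leaving out genes below the median level, averaging the probe sets of a gene, fitting the 2 groups of a comparison alone, trend, array weights and dropping arrays singly. The fit was tested on simulated data.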

Additional observations from a re-analysis of the deposited data

Results flagged for a closer look

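In 35 genes and 3 groups each (105 groups), 14 groups held an array whose gap to the next was larger than Dixon's 95% critical share of the group's range. Chance flags about 1 in 20 groups. Among the members this applied to Rara alone, where CON 4 was lowest at 6.66 (other CON arrays 6.83 to 6.92), on the far side from RVF+ and RVF.

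RVF+ 8 stood out in 4 genes. It was lowest in RVF+ for Hrc (7.15, others 8.44 to 8.91), Tmem38a (7.81, others 9.01 to 9.26) and Ncoa1 (7.73, others 8.20 to 8.29), and highest for Bco2 (5.31, others 4.00 to 4.32). RVF 13 stood out in 3 genes, lowest in RVF for Hrc (8.27, others 8.75 to 8.77) and Rxrb (6.16, others 6.28 to 6.29) and highest for Aldh1a3 (6.47, others 6.09 to 6.12). RVF 14 was lowest for Dhrs7 at 6.97 (others 7.13 to 7.15).

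Cyp2c22, a cytochrome of the retinoic acid breakdown list that is known from liver, reached 5.03 in CON 4 (other CON arrays 3.12 to 3.62). The mean of 3 liver markers was 6.90 in that array and 3.24 to 3.98 in the other CON arrays; its part in the Cyp2c22 value was not tested. CON 4 was also highest for Lpl, at 12.2 (others 12.1). Akr1b10 was lowest in CON 2 (6.97, others 7.82 to 8.22) and, within RVF+, highest in RVF+ 10 (7.57, others 6.21 to 6.52). Rdh13 was highest in CON 1 (6.85, others 6.41 to 6.53).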

How the results depend on the processing

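No paired analysis was possible because no sample number occurs in more than 1 group. The number of genes called in RVF against CON was 4466 with RVF and CON fitted alone and 4688 with array weights. That of pathway genes was 20 under each. Leaving out 1 array gave 6 to 19 pathway genes and 2063 to 4247 of all genes. In RVF+ against RVF leaving out 1 array gave 0 to 3 genes, the 3 without RVF+ 12 only. The cause was not tested. Dhrs7c kept its direction from CON under every alternative run: leaving out 1 array gave -2.48 to -1.89 in RVF+ and -2.54 to -2.14 in RVF, and the other alternatives -2.39 to -1.97 and -2.47 to -2.32. Its RVF+ minus RVF difference ran from -0.15 to 0.50. Rara stayed at 0.44 to 0.59 and 0.40 to 0.48, and Rarb at -0.64 to -0.50 and -0.65 to -0.58, with 1 array left out. Of the comparisons of named tested genes with an alternative, 1887 kept their side of the threshold, 35 gained a call and 61 lost one, and 0 called differences changed sign. These counts include RVF+ against RVF, where none of the named genes was called under any alternative. Most of the lost calls were in RVF against CON. Dim genes such as Aldh1a2, Crabp2 and the Cyp26 genes are limited by their signal over background. The same limit holds for Dhrs7c in RVF+ and RVF, where its means were below the median gene.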

Other observations

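Among the 47 pathway genes outside the members, 6 had an unadjusted p under 0.05 in RVF+ against RVF, and limma's adjusted p passed for 0 of them. The gene with the smallest p was Akr1b10, lower in RVF+ by 1.06 ± 0.30 (SE; difference -1.06, adjusted p = 0.40). The others were Akr1b8 (0.66 ± 0.26 SE, adjusted p = 0.61), Rbp7, a retinol-binding protein of vascular endothelium (0.69 ± 0.27 SE, adjusted p = 0.61), the hormone-sensitive lipase Lipe, which also hydrolyses retinyl esters (0.38 ± 0.16 SE, adjusted p = 0.62), Aldh1a3 (-0.49 ± 0.23 SE, adjusted p = 0.67) and Rdh13 (-0.34 ± 0.15 SE, adjusted p = 0.67). All 6 groups overlapped. Against CON, Rbp7 and Lipe fell in RVF, by 0.78 ± 0.25 (SE, adjusted p = 0.040) and 0.45 ± 0.15 (SE, adjusted p = 0.047), and had -0.09 (adjusted p = 0.82) and -0.07 (adjusted p = 0.76) in RVF+. In RVF 4 of 4 arrays were below every CON array for Rbp7, and the ranges overlapped for Lipe.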
